A study of Mus musculus with 30 samples.

Results

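The effect of tumour necrosis factor (TNF) was measured in mouse colonoids that also received transforming growth factor beta 1 (TGFB1) and bone morphogenetic protein 2 (BMP2). The comparison rests on 6 of the 30 libraries in the series: 3 from colonoids given TGFB1, BMP2 and TNF and 3 from colonoids given TGFB1 and BMP2 alone. These libraries stand in separate deposited tables, so they were chosen by their titles and set against each other for the genes listed in both tables. Each of the lines L42, L43 and L46 contributed 1 library to each group, and every comparison was made within lines.

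Colonoids are organoids grown from colon epithelium, without the immune and stromal cells of the tissue. TGFB1 was given at 3 ng/mL, BMP2 at 10 ng/mL and TNF at 100 ng/mL. Both groups carried TGFB1 and BMP2, so the control here is itself a treated culture. Vehicle colonoids and colonoids given TNF alone, 3 libraries each from the same lines, are used further on to set the TNF effect beside that without TGFB1 and BMP2. The sources used here do not give the genotype of the lines, the animals behind them or the length of treatment. The series also holds colonocyte cultures and colon epithelium with and without Smad4 and concerns the induction of the chemokine Ccl20.

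TNF binds its receptors on epithelial cells and releases NF-kB dimers from their inhibitory proteins. The dimers enter the nucleus and switch on chemokines, survival factors and, among the fastest targets, the genes of their own inhibitors, which end the signal. TGFB1 and BMP2 act through receptor kinases and Smad proteins, with Smad4 as the partner that both branches share. In colon epithelium BMP signalling is known to favour differentiation, and TGFB signalling to restrain growth and shape the response to inflammation.

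NF-kB dimers recognise a sequence of 10 letters: 3 G, a purine, any base, A or T, 2 pyrimidines and 2 C. The promoters below were picked among those that hold a match to it, so its presence in them is no result. They belong to the feedback inhibitors Tnfaip3, Nfkbia and Tnip1, the top riser Ubd, the growth factor gene Csf1, and Alpi as a gene that fell. Each is the 250 bases before the RefSeq start of the gene (build GRCm38.p6), read 5′ to 3′ on the strand of the gene, with matches to that sequence on either strand in capitals. Ubd lies at chr17:37193642-37193891 (plus strand), Tnfaip3 at chr10:19015411-19015660, Nfkbia at chr12:55492648-55492897, Tnip1 at chr11:54962941-54963190, Csf1 at chr3:107760470-107760719 and Alpi at chr1:87101607-87101856 (all minus strand).
Ubd: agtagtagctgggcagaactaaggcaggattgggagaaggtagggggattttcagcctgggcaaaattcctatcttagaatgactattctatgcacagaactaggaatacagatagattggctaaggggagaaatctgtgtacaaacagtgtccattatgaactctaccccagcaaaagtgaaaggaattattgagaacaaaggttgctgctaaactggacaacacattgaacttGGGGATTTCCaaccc
Tnfaip3: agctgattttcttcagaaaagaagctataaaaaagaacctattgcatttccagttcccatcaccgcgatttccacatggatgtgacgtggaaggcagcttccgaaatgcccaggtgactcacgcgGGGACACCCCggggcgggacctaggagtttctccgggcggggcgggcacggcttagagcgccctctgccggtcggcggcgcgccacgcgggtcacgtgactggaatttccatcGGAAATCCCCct
Nfkbia: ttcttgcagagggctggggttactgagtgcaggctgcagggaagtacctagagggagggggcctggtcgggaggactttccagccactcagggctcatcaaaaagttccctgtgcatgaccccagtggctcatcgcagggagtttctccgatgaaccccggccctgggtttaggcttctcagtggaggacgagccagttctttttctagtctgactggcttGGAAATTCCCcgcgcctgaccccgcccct
Tnip1: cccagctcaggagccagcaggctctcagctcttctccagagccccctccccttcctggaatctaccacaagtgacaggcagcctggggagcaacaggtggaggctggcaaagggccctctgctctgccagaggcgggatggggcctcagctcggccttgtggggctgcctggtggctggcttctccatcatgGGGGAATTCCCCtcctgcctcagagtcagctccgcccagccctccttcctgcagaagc
Csf1: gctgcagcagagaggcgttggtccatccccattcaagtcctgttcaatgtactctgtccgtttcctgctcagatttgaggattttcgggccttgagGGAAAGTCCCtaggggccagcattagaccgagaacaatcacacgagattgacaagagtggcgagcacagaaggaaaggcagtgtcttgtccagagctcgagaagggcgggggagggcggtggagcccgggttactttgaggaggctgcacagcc
Alpi: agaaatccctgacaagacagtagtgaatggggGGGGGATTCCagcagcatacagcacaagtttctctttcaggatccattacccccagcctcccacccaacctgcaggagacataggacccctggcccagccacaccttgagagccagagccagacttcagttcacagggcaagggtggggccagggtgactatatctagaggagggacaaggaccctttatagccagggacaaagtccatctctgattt

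The matches differed in place. The match in Ubd ended 5 bases before the start and that in Nfkbia 19 bases before it, while that in Csf1 lay 144 bases and that in Alpi 208 bases away. Tnfaip3 had 2 separate matches, 2 and 115 bases before the start. The 4 overlapping matches of Tnip1, counted on both strands, cover a single run of 12 bases. Over all 32851 promoter windows of 300 bases in the table (250 before and 50 after the start), 4.51% held a match. Of the 9100 tested genes with a window (80.6% of those tested, some with more than 1 window), 6.19% had a match. Among those with a window, 62 of 552 genes that rose had a match (11.2%) and 52 of 771 that fell (6.74%). The 94 named genes with a window held 15 with a match (16%). Among genes that rose at least 2-fold with TNF, 7 of the 28 with a window had a match (25%), against 3 of the 28 that fell at least 2-fold (10.7%) and 9 of 14 feedback inhibitors of NF-kB (64.3%). These shares are descriptions of letters in a short window and were not tested.

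The 6 libraries held 45.5 to 60 M recovered reads over the 11527 genes listed in both tables. Values are CPM, reads scaled to a common library size over the 6 libraries together. Changes are TNF minus no TNF on the log2(CPM + 1) scale, on which low genes show less than their full change. Libraries of the same line with and without TNF had more similar profiles (Pearson 0.991 to 0.993 across genes) than libraries of different lines (0.945 to 0.987). The genes that define epithelium were high in all 6 libraries: the 15 epithelial identity genes summed to 26340 to 33980 CPM without TNF and 27310 to 33910 CPM with it. Of 18 leukocyte markers, 14 were in neither table, and those measured summed to 6.26 to 14.4 CPM without TNF and 5.51 to 14.6 CPM with it, so the ranges overlapped. Smad4 stood at 138, 155 and 123 CPM without TNF and at 147, 157 and 121 CPM with it, in the order L42, L43, L46, and its change of 0.03 (SE 0.06) did not pass the test (adjusted p = 0.795 by limma).

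Of 11293 genes tested, 1688 changed with TNF (14.9%, limma with line as a block, Benjamini-Hochberg adjustment, threshold 0.05). More genes fell than rose, with 983 lower (8.7%) and 705 higher (6.24%), and the median change over all genes was 0.005. Every count of list members below stands beside these shares. Most changes were small, and 35 genes rose and 35 fell by 2-fold or more on this scale. In 1674 of the 1688 the sign was the same in all 3 lines. The groups did not overlap for 522 of the called genes, and for 925 of all genes tested (8.19%). The plot of change against level shows the rises and falls over the whole range of expression. Because the lines differed strongly from each other, the calls depend on the pairing: without line as a block, 1 gene passed. In a fit of all 12 colonoid libraries (the 12-library fit, with vehicle and TNF alone), which gives each line 1 level over the 4 conditions, 254 genes passed. Of the 119 named genes listed in all 3 colonoid tables, 66 lost their call there.

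**Figure D1:**
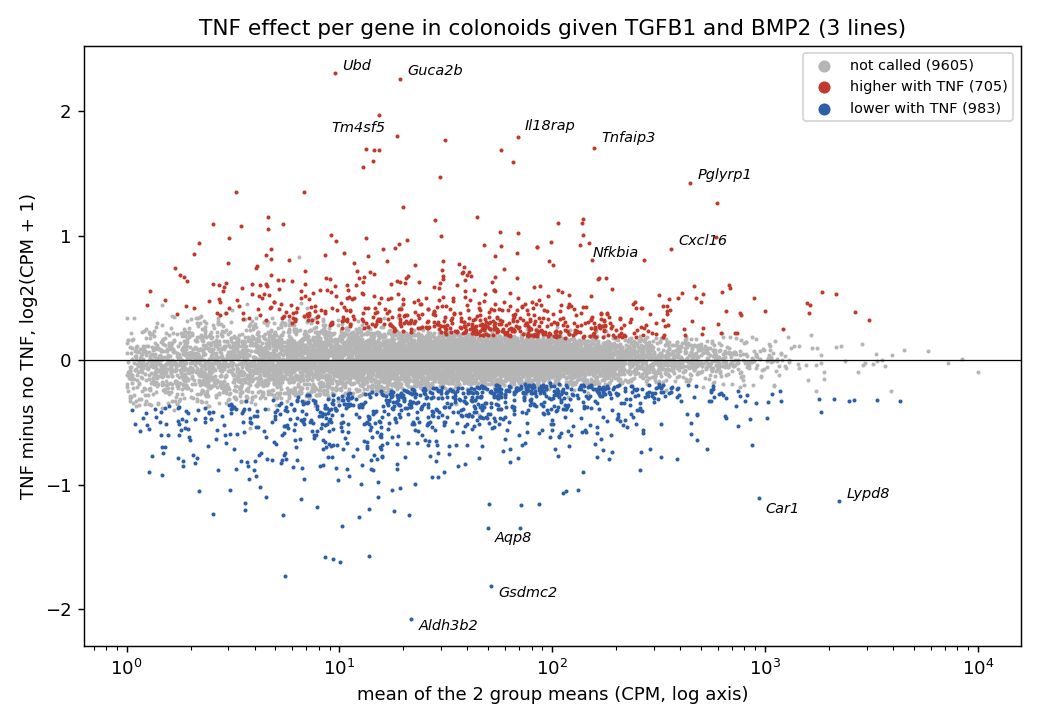
Each point is 1 of 11293 genes, with its mean level in CPM on a log axis and its change with TNF on the log2(CPM + 1) scale; red points are the 705 genes that rose, blue points the 983 that fell, and grey points those not called. The rises reach 2.31 (Ubd) and the falls reach -2.08 (Aldh3b2), and most called genes lie closer to 0.

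The feedback inhibitors of NF-kB were mostly higher with TNF. Of 15 measured, 10 rose and none fell, with a median change of 0.38 against 0.005 over all genes. Tnfaip3 encodes A20, a ubiquitin-editing enzyme that shuts down the TNF receptor complex. It stood at 69.9, 57.8 and 96.0 CPM in L42, L43 and L46 without TNF and at 228, 262 and 233 CPM with it. The groups did not overlap, and Tnfaip3 gained 1.71 (SE 0.11, limma adjusted p = 1.4e-07). Nfkbia encodes the inhibitor that holds NF-kB in the cytoplasm. It went from 94.0, 80.0 and 103 CPM to 160, 214 and 188 CPM, a rise of 1.01 (SE 0.10, adjusted p = 4.48e-06), again with every TNF library above every control. Nfkbie, a related inhibitor, rose by 0.74, and Tnip1 and Tnip3, which bind A20, by 0.66 and 0.56.

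NF-kB subunits and their kinases moved less. Of 15 measured, 5 rose and none fell, with a median of 0.04. The risers were Nfkb2 (0.52), Relb (0.46), Nfkb1 (0.34) and Rela (0.21), which encode 4 of the DNA-binding subunits, and Ikbke (0.49), a kinase related to the IKK enzymes. Rel, the remaining subunit gene, changed by 0.02 and the IKK kinase genes Chuk and Ikbkb by -0.10 and 0.065, none of which passed. The call for Rela was lost without L42 and without L43, and those for Rela, Nfkb1 and Ikbke in the 12-library fit.

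Receptor and survival genes gave a mixed picture, with 4 of 14 measured higher and 1 lower (median 0.07). Birc3 encodes cIAP2, a ubiquitin ligase that protects cells from TNF-driven death. It rose from 63.6, 70.1 and 68.2 CPM to 129, 134 and 129 CPM, a change of 0.95 (SE 0.06, adjusted p = 9.67e-08 by limma). Its 3 lines were close to each other in both groups, so the groups were far apart. Traf2, an adaptor of the TNF receptors, rose by 0.41, the receptor gene Tnfrsf1b by 0.33 and Cflar, an inhibitor of caspase-8, by 0.29. Tradd, the adaptor of the main TNF receptor, fell by 0.23. The gene of that receptor, Tnfrsf1a, changed by -0.16 and did not pass. The calls for Cflar and Tradd were lost without L42, and both and that for Tnfrsf1b in the 12-library fit.

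**Figure D2:**
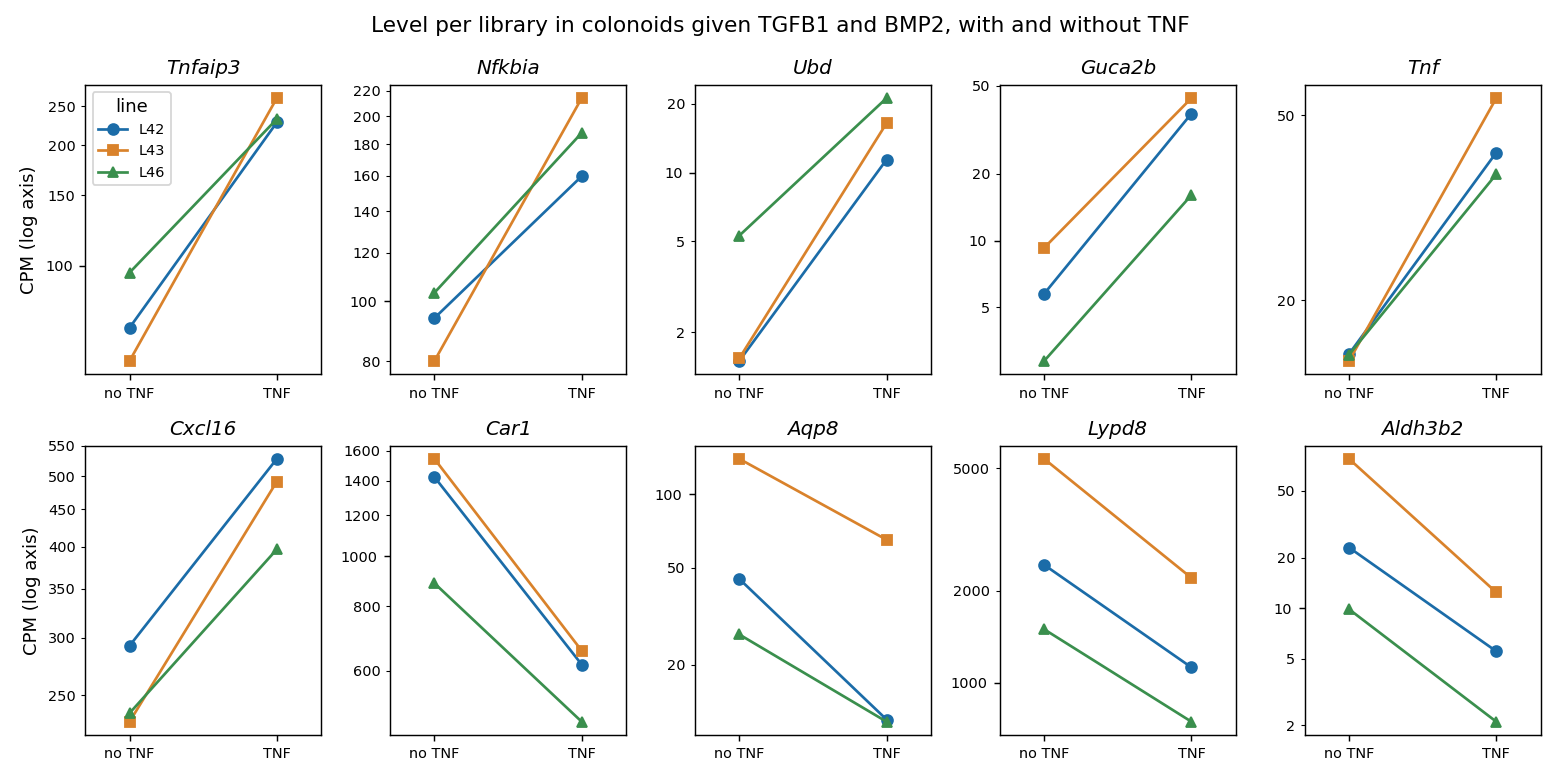
Level in CPM (log axis, with its own range in each of 10 panels) of each gene in the 3 colonoid lines given TGFB1 and BMP2, without and with TNF; each line of the plot joins the 2 libraries of a colonoid line. The 6 genes from Tnfaip3 to Cxcl16 are higher with TNF in all 3 lines and the 4 genes from Car1 to Aldh3b2 are lower in all 3, while the lines start from different levels.

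Few chemokines could be compared. Of 20 CC chemokines, 4 were tested, and Ccl6 fell (-0.43) from 2.09, 1.81 and 7.35 CPM to 1.16, 1.47 and 4.64 CPM, a call that was lost without L42, without L46, with DESeq2 and in the 12-library fit. Ccl20, which attracts cells with the receptor Ccr6, was listed only in the table with TNF, at 1.29, 1.48 and 1.57 CPM on the scale of that table. That table also holds the colonoids given TNF alone, so a listing by itself shows no change in this comparison. Ccl2 (7.26, 11.6 and 3.71 CPM) and Ccl7 (7.37, 18.3 and 2.37 CPM), which attract monocytes, were likewise listed only with TNF, and so was Cxcl10 at 0.376 to 0.659 CPM. Their levels without TNF were not analysed here, so no change is given. Among 5 CXC and CX3C genes tested, Cxcl11 and Cxcl16 rose. Cxcl16, a membrane-bound chemokine of epithelium, went from 292, 230 and 236 CPM to 528, 492 and 397 CPM (0.90, SE 0.07, adjusted p = 6.68e-07 by limma). Cxcl11, which the annotation lists as a polymorphic pseudogene in the reference mouse genome, went from 3.48, 4.08 and 2.57 CPM to 10.7, 12.5 and 7.48 CPM (1.35). For both genes the groups did not overlap. Cxcl1, a neutrophil attractant, changed by 0.18 and did not pass.

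Of 15 other cytokine genes measured, 7 rose and 3 fell (median 0.22). Tnf itself stood at 15.4, 14.8 and 15.3 CPM without TNF and at 41.6, 54.4 and 37.4 CPM with it (1.48, SE 0.09, adjusted p = 1.04e-07 by limma). The protein added to the medium carries no RNA, so these are reads of the colonoids' own transcript. Csf1, the macrophage growth factor, rose from 7.17, 5.87 and 6.56 CPM to 21.0, 27.7 and 17.7 CPM (1.60). Tnfsf10, the death ligand TRAIL, went from 0.780, 1.52 and 1.18 CPM to 3.09, 10.7 and 2.39 CPM, with L43 far above the other lines (1.35, SE 0.20). Il1a and Il23a rose by 1.06 and 0.79, and Lif and Il34 by 0.61 and 0.51. The 3 that fell, named after their values were seen, were Il18 (-0.50), Il15 (-0.39) and Il1rn (-0.29). The parts of the interleukin-18 receptor rose while the Il18 ligand gene fell. Il18rap went from 32.4, 26.5 and 32.0 CPM to 112, 108 and 102 CPM (1.80) and Il18r1 from 30.3, 21.2 and 29.2 CPM to 95.1, 89.5 and 79.2 CPM (1.69), with no overlap.

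The largest rise was in Ubd, which encodes the ubiquitin-like protein FAT10. It went from 1.49, 1.53 and 5.29 CPM to 11.4, 16.5 and 21.2 CPM, a change of 2.31 (SE 0.14, adjusted p = 6.03e-08 by limma), and all 3 TNF libraries stood above the highest control. It belongs to a list of 12 other TNF targets of which 5 rose and 1 fell (median 0.16). The other risers were the sugar transporter gene Slc2a6 (1.08), the adhesion molecule gene Icam1 (0.85), the protease gene Plau (0.82) and the receptor gene Cd40 (0.80). Ptges, a prostaglandin E synthase gene named after its value was seen, fell (-0.57). Icam1 was low, at 1.69, 2.18 and 5.21 CPM without TNF and at 3.69, 6.20 and 8.15 CPM with it, so the groups overlapped although each line rose. In the 12-library fit Icam1 and Slc2a6 lost their calls.

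Genes of mucosal defence went both ways, with 8 of 17 higher and 2 lower (median 0.06). Nos2, which makes nitric oxide, rose from 2.90, 7.91 and 6.29 CPM to 10.1, 35.8 and 14.6 CPM (1.55, SE 0.13). Pglyrp1, a protein that binds bacterial cell wall, rose from 157, 185 and 391 CPM to 361, 684 and 899 CPM (1.43, SE 0.10), with the highest control, L46, above the lowest TNF library, L42. Nod2, a sensor of bacterial cell wall, went from 5.90, 4.91 and 6.54 CPM to 12.8, 12.8 and 12.04 CPM (1.01) with no overlap. Slpi, a protease inhibitor of mucus, rose by 1.10 (not called by DESeq2 or in the 12-library fit), and the oxidase genes Nox1 (0.84), Noxo1 (0.38), Duox2 (0.55) and Duoxa2 (0.52) rose as well. Lypd8 encodes a protein that keeps bacteria away from the colon surface. It fell from 2426, 5373 and 1496 CPM to 1124, 2199 and 748 CPM (-1.13, SE 0.08, adjusted p = 1.79e-07 by limma). It fell in every line, but the control of L46 was lower than L43 with TNF, so the groups overlapped. Saa1 was the other gene that fell (-0.33).

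Of 31 interferon-stimulated genes, 3 rose and 7 fell (median -0.115), beside 6.24% higher and 8.7% lower over all genes. Irf8, a transcription factor of the interferon pathway, fell from 8.80, 7.04 and 17.2 CPM to 4.48, 3.35 and 9.41 CPM (-0.84). Oasl1 (-0.46), Oasl2 (-0.48), Ifit2 (-0.55) and Ifit1 (-0.40) fell too. The 3 that rose were Ifi47 (0.32), Dtx3l (0.30) and Ddx58 (0.30). The call for Ifit1 was lost with DESeq2, with total reads as the only scaling, without L42, without L43 and within 6 pairs over 12 libraries (limma and edgeR). That for Ifit2 was lost without L43, and the calls for Irf8, Oasl1, Oasl2, Ifit1 and Ifit2 in the 12-library fit. Neither of the 2 tested guanylate-binding genes passed: Gbp8 changed by 0.34 and Gbp7 by 0.12. Of 16 antigen presentation genes, 4 rose and none fell, against the same 6.24% and 8.7% over all genes: Cd74, the invariant chain of class II molecules (0.98), Tapbp (0.42), B2m (0.30) and Psme2 (0.22, a call lost without L42 and without L46). Cd74 was low, going from 0.602, 1.64 and 2.49 CPM to 1.27, 5.22 and 7.06 CPM. Of these 4, the 12-library fit called Tapbp.

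Over all genes, 6.24% rose and 8.7% fell. Of 23 genes of cell death and survival, 5 rose and 1 fell (median 0.04). Among the risers were the pro-apoptotic Bid (0.58), Bcl2l11 (0.41) and Pmaip1 (0.23) and the inflammatory caspase gene Casp4 (0.46). Bid went from 22.9, 22.1 and 24.7 CPM to 36.6, 35.1 and 34.2 CPM with no overlap. Gsdmc2, a gasdermin gene, fell from 64.5, 65.5 and 113 CPM to 27.5, 15.2 and 23.6 CPM (-1.82, SE 0.13). Its neighbours Gsdmc3 and Gsdmc4 fell by 1.59 and 1.74. These 3 genes are near-identical copies, so reads may have been split between them and the value of each is uncertain. Among 23 immediate early genes, 3 rose and 4 fell (median -0.015): Dusp4 (0.42), Junb (0.32) and Gadd45a (0.27) against Klf4 (-0.46), Atf3 (-0.29), Zfp36 (-0.25) and Egr1 (-0.23). The calls for Junb, Gadd45a and Pmaip1 were lost without L43 and that for Atf3 without L42. The 12-library fit lost the calls for these 4, Dusp4, Klf4, Bcl2l11, Casp4 and Gsdmc4.

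**Figure D3:**
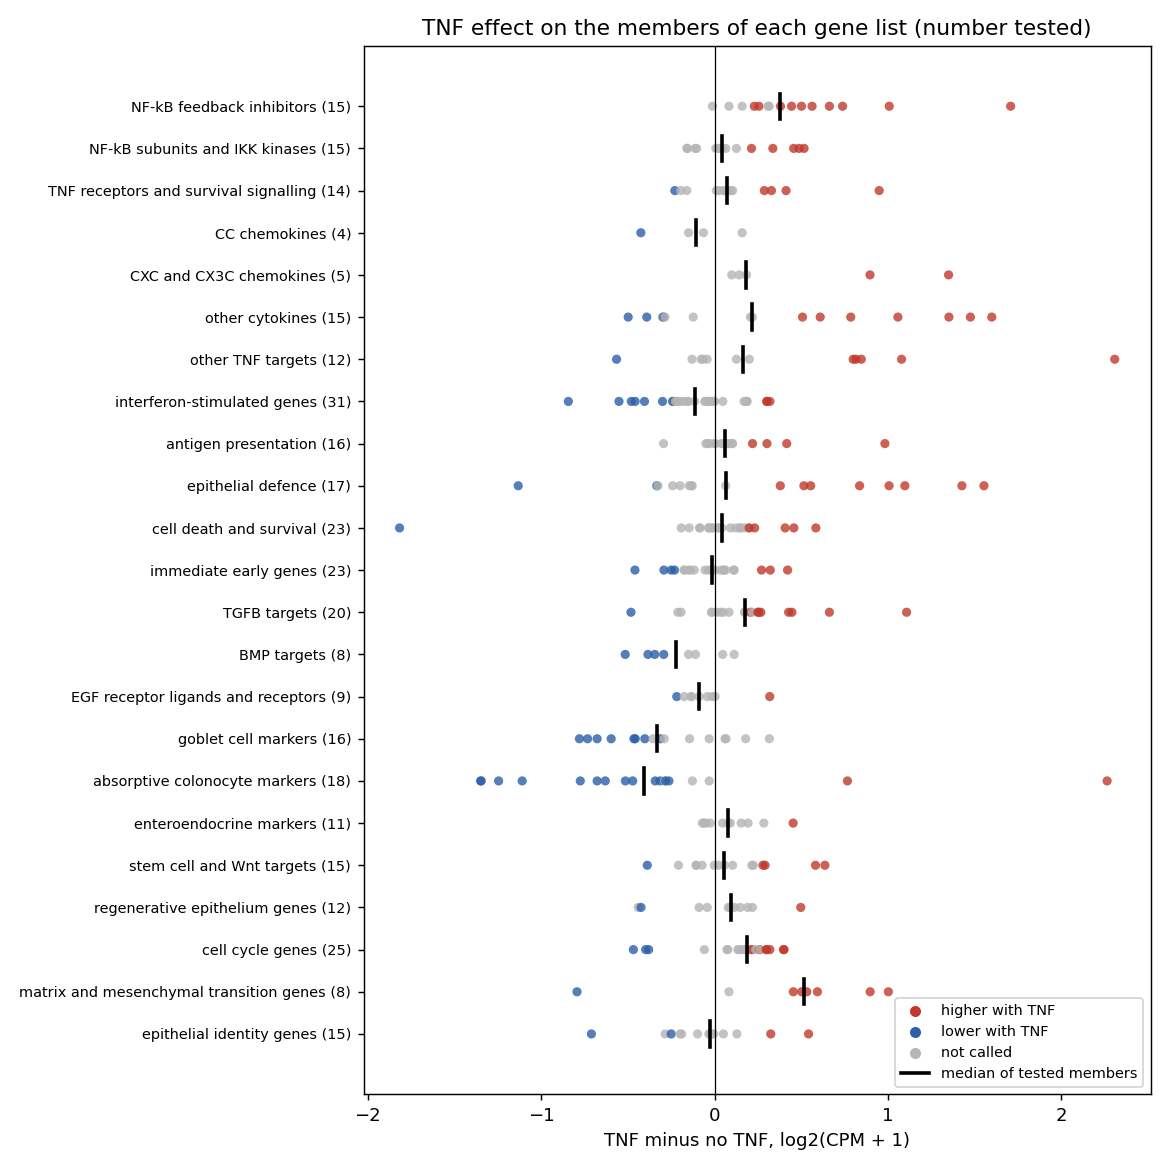
Change with TNF on the log2(CPM + 1) scale for each tested member of the gene lists with at least 4 tested members, with red for genes that rose, blue for genes that fell and grey for genes not called; the black bar is the median and the number tested stands in brackets. Goblet and absorptive markers lie mostly left of 0 (medians -0.33 and -0.41), feedback inhibitors of NF-kB and matrix genes mostly right (0.38 and 0.52).

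Markers of mature absorptive colonocytes were mostly lower with TNF. Of 18 measured, 13 fell, 2 rose and 3 did not pass, with a median of -0.41 against 0.005 over all genes. Aqp8, a water channel of surface colonocytes, went from 45.0, 139 and 26.7 CPM to 11.96, 65.1 and 11.7 CPM (-1.35, SE 0.11, adjusted p = 1.18e-06 by limma). It fell in each line, but L43 with TNF stayed above both other controls. Car1, a carbonic anhydrase, fell from 1423, 1543 and 886 CPM to 617, 656 and 478 CPM (-1.11, SE 0.08), and all 3 TNF libraries lay below the lowest control. Cyp2c55, a cytochrome P450, fell from 111, 148 and 46.5 CPM to 46.7, 53.9 and 17.3 CPM (-1.35), and Alpi, the intestinal alkaline phosphatase, from 41.4, 41.0 and 10.5 CPM to 13.6, 16.4 and 5.07 CPM (-1.25, SE 0.10). In both genes L46 was lowest in each group.

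The 2 absorptive markers that rose were the paired guanylin genes. Guca2b encodes uroguanylin, a ligand of the guanylate cyclase that drives fluid secretion. It went from 5.75, 9.27 and 2.86 CPM to 37.5, 44.1 and 16.1 CPM, which is 2.26 higher (SE 0.09, limma adjusted p = 1.62e-09), and the lowest TNF library stood above the highest control. Guca2a, which encodes guanylin, rose by 0.77.

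Of 16 goblet cell markers, 8 fell, none rose and 8 did not pass (median -0.33). The change was positive, without passing, for 4 of the 16, among them Clca1 (0.32) and Spdef (0.06). Tff3, a trefoil peptide of mucus, went from 19.7, 24.7 and 34.3 CPM to 13.6, 13.7 and 16.4 CPM (-0.78). Fcgbp, a mucus-binding protein, went from 65.7, 73.1 and 80.4 CPM to 52.6, 39.5 and 39.5 CPM (-0.73). Muc13, a membrane mucin, went from 524, 582 and 518 CPM to 309, 375 and 394 CPM (-0.60). For these 3 genes the groups did not overlap. Zg16 (-0.68) and Agr2 (-0.47) fell as well, and Muc2, the main secreted mucin, changed by -0.355 without passing. The call for Agr2 was lost without L46 and with total reads as the only scaling, and those for Tff3, Fcgbp, Zg16 and Agr2 in the 12-library fit, where Muc13 kept its call. In whole colonoids, fewer cells of a type and less RNA per cell cannot be told apart.

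Of 11 enteroendocrine markers, Tph1, the enzyme of serotonin synthesis, rose (0.45) and none fell, beside 6.24% higher and 8.7% lower over all genes. The single tuft cell marker tested, Avil, changed by 0.30 and did not pass (adjusted p = 0.156). Of 15 stem cell and Wnt target genes, 4 rose and 1 fell (median 0.06): Ascl2 (0.64), Cd44 (0.58), Tcf7 (0.29) and Ephb3 (0.28) against Cdca7 (-0.39), while Lgr5, the marker of crypt stem cells, changed by -0.21 without passing. The calls for Tcf7 and Ephb3 were lost without L42, and that for Ephb3 also without L43 and with total reads as the only scaling. In L46, Ephb3 changed by -0.005. Of 25 cell cycle genes, 7 rose and 3 fell (median 0.19), beside 14.9% called over all genes: Mcm6 (0.40) and Bub1 (0.40) were among the risers and Pcna (-0.47), Ccne2 (-0.40) and Ccnd2 (-0.38) were the 3 that fell. The call for Bub1 was lost without L42. That for Ccne2, which changed by 0.05 in L46, was lost with edgeR (within 6 pairs too), with DESeq2, with total reads as the only scaling, without L42 and without L43. Of 12 genes of regenerating epithelium, Ly6e rose (0.50) and Ly6g6c fell (-0.42), beside the same 14.9% over all genes. Of 15 epithelial identity genes, Cdx1 (0.54) and Cldn4 (0.32) rose while Cldn15 (-0.71) and Cdx2 (-0.25) fell. Without L43 the calls for Ly6g6c, Cldn4 and Cdx2 were lost, the last also without L42, and Ly6g6c did not pass by limma within 6 pairs. All these calls, from Tph1 to Cdx2, were lost in the 12-library fit.

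Targets of the ligands that both groups received also moved, beside 6.24% higher and 8.7% lower over all genes. Of 20 TGFB targets, 8 rose and 1 fell (median 0.17). Pdgfb, a growth factor gene, went from 101, 95.4 and 58.2 CPM to 203, 269 and 105 CPM (1.11, SE 0.09), and Itgb6, the integrin chain that activates latent TGFB, rose by 0.66 and Thbs1 by 0.43 (not called by DESeq2). The calls for these 3 genes were lost in the 12-library fit. The feedback genes Smad7 and Skil changed by 0.03 and 0.08 and did not pass. Of 8 BMP targets, none rose and 4 fell (median -0.22): Id2 from 33.5, 49.0 and 10.4 CPM to 22.6, 34.6 and 7.03 CPM (-0.515), Zfp503 (-0.38), Smad6 (-0.345) and Id1 (-0.29). In the 12-library fit none of these 4 was called. The calls for Zfp503, Smad6 and Id1 were lost without L42, those for Zfp503 and Smad6 also without L43 and with DESeq2, and that for Zfp503 also within 6 pairs (limma and edgeR). Among 9 genes of EGF receptor signalling, Egfr rose (0.32) and Erbb2 fell (-0.22), the latter not without L42, without L46 or by edgeR within 6 pairs, and neither in the 12-library fit.

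Matrix and mesenchymal transition genes had the highest list median, 0.52, with 6 of 8 measured higher and 1 lower. Of the 19 in the list, 10 were in neither table, among them Vim, Cdh2, Zeb2 and Twist1, and 1 was in 1 table only. The median thus rests on the integrin, protease and inhibitor genes that were measured. Mmp7, a matrix protease of epithelium, went from 18.9, 3.398 and 39.7 CPM to 37.0, 9.45 and 71.3 CPM (1.00, SE 0.09), with each line higher from very different levels. The integrin genes Itga5 (0.90), Itga2 (0.59) and Itgav (0.53) rose, with no overlap for Itga5 and Itga2. Timp3, an inhibitor of matrix proteases, fell from 377, 848 and 225 CPM to 272, 503 and 99.9 CPM (-0.79). Another such inhibitor gene, Timp2 (0.50), and the protease gene Mmp14 (0.45), both named after their values were seen, rose. The calls for Mmp7, Itga5, Itga2, Itgav and Timp3 were lost in the 12-library fit.

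Among the 15 largest rises, those not yet described were 4732456N10Rik (1.97), the tetraspanin-like Tm4sf5 (1.80), the G-protein regulator Rgs4 (1.77), Gm10636 (1.70), the nucleoside transporter Slc28a3 (1.69), Lix1l (1.69) and the keratin Krt36 (1.59). Tm4sf5 went from 10.3, 5.39 and 6.29 CPM to 47.7, 24.9 and 16.7 CPM, and Krt36 from 23.01, 47.4 and 19.9 CPM to 73.7, 178 and 49.1 CPM. The 15 largest falls were led by the aldehyde dehydrogenase Aldh3b2, which went from 22.99, 77.7 and 9.86 CPM to 5.53, 12.4 and 2.104 CPM (-2.08, SE 0.12, adjusted p = 4.76e-08 by limma). They also held the calcium channel Trpv6 (-1.62), Fhl1 (-1.58), Cyp2d26 (-1.57), the ion transport regulator Fxyd4 (-1.33), Lrmp (-1.26), the transglutaminase Tgm3 (-1.25), the zinc transporter Slc39a5 (-1.23) and the inflammasome receptor Nlrp6 (-1.21). The calls for Aldh3b2 and Nlrp6 were lost in the 12-library fit. Exons of Lix1l, Slc28a3, Cyp2c55 and Lrmp overlap genes on the other strand, and the sources used here do not give the strand setting of the counting. The groups did not overlap for 14 of the 15 rises and for 5 of the 15 falls. This compares with 522 of the 1688 called genes and 8.19% of all genes tested. These genes were chosen for the size of their change, which favours groups that do not overlap. Why the rises and falls differ was not tested.

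**Figure D4:**
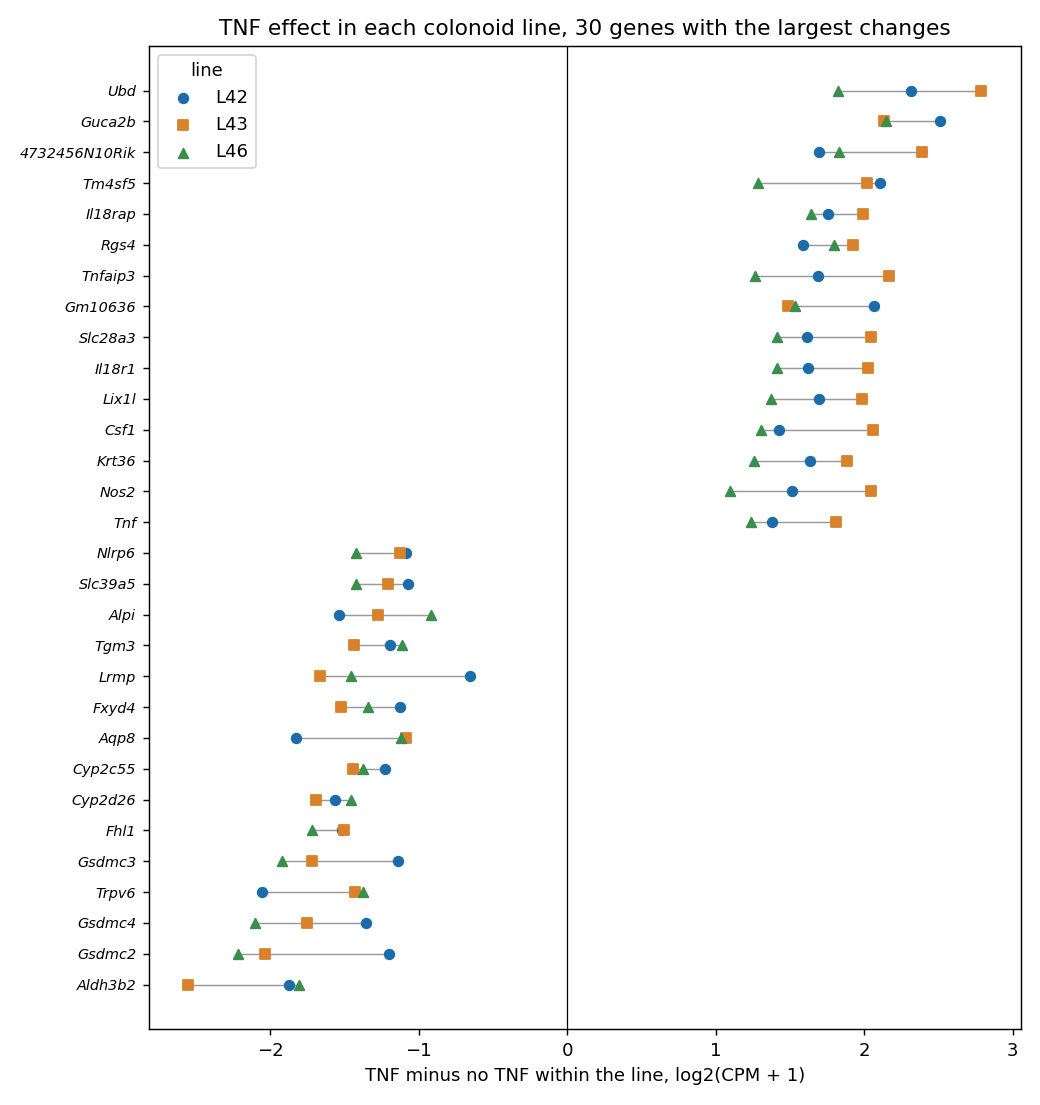
TNF effect within each of the 3 lines on the log2(CPM + 1) scale for the 15 largest rises and the 15 largest falls, ordered by the mean effect; the grey bar joins the lines. Line L43 has the largest change for 12 of the 15 rises and L46 the smallest for 11, while the falls show no such order.

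The size of the response differed by line. L43 had 69 genes at least 2-fold higher and 51 at least 2-fold lower, L42 had 35 and 57, and L46 had 30 and 37. For the 15 largest rises, the change was largest in L43 for 12 and smallest in L46 for 11. Tnfaip3 rose by 1.69 in L42, 2.164 in L43 and 1.27 in L46, where its level without TNF was highest. For the 15 largest falls, the change was largest in L42 for 3 genes and in L43 and L46 for 6 each. With 1 pair per line, these differences between lines were not tested. The responses of the lines across genes had Pearson correlations of 0.694 (L42 with L43), 0.613 (L42 with L46) and 0.602 (L43 with L46), as a description over 11293 genes that share libraries.

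The next question was whether TNF acted differently in colonoids with and without TGFB1 and BMP2. Over all 12 colonoid libraries, with 1 level per line across the 4 conditions, the difference passed for none of 11413 genes (0%, limma). At an unadjusted p under 0.05 there were 315, edgeR called 0 and DESeq2 called 32, and the lowest adjusted p was 0.494 by limma. In that fit TNF alone changed 41 genes (0.359%), 31 up and 10 down. Of the 38 that were also tested with TGFB1 and BMP2 in the 6 libraries, 36 were called there in the same direction and none in the opposite one. The 5 genes with the smallest unadjusted p for the difference were 1810065E05Rik, Cyp26b1, Cyp2c55, Tm4sf5 and Gpr35.

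That fit assumes that a line keeps the same offset with and without TGFB1 and BMP2. When each line was given its own level in each ligand state, so that TNF was read within 6 pairs of libraries, 158 of 11413 genes differed (1.38%, limma), and edgeR on the same pairs called 167, with 143 genes in common. This fit was chosen after the data were seen. In it TNF changed 664 genes without TGFB1 and BMP2 (5.82%, 421 up and 243 down) and 1787 with them (15.7%, 808 up and 979 down). Both sets shared 449 genes called in the same direction, 67.6% of the former and 25.1% of the latter, and 6 were called in opposite directions. The difference was negative for 135 genes and positive for 23. The most common pattern, with 85 genes, was a fall with TGFB1 and BMP2 where no change was called without them. Another 25 fell in both but further with TGFB1 and BMP2, 16 rose without them and were not called with them, and 14 rose with them and were not called without. The count was 50 without L42, 96 without L43 and 272 without L46.

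**Figure D5:**
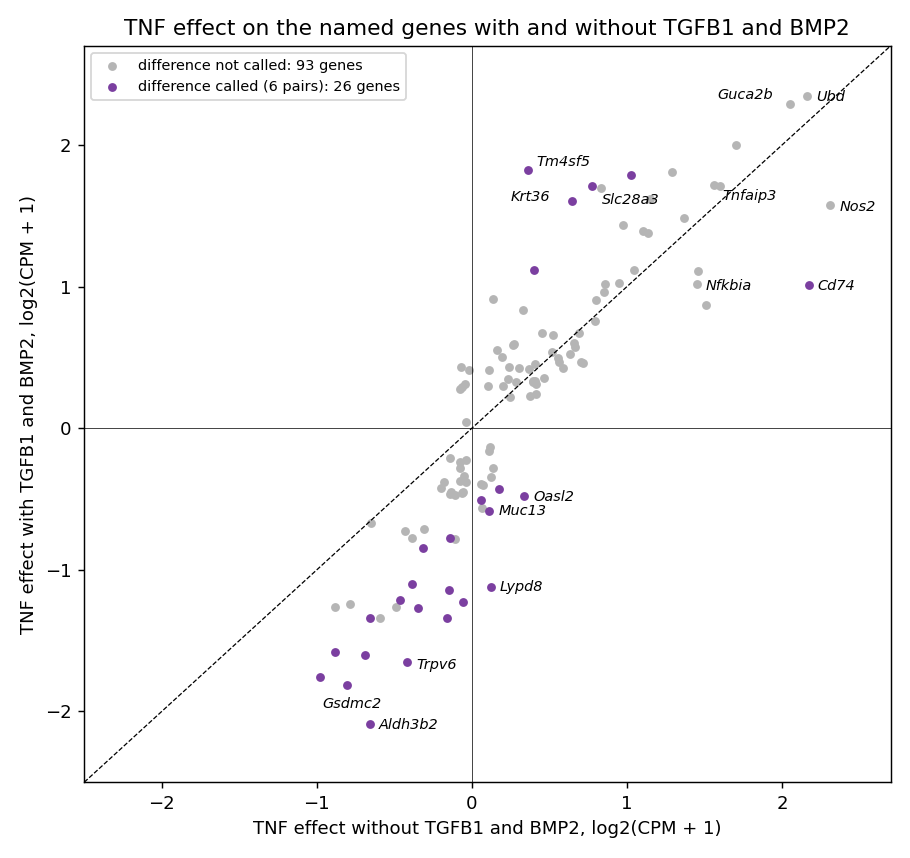
TNF effect on the log2(CPM + 1) scale without (x axis) and with (y axis) TGFB1 and BMP2 for the 119 named genes listed in all 3 colonoid tables, from the fit within 6 pairs; purple marks the 26 genes whose difference passed and the dashed line marks equal effects. Tnfaip3 and Ubd lie close to the dashed line, Lypd8, Aldh3b2 and Trpv6 below it, and Tm4sf5 and Krt36 above it.

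The NF-kB feedback genes did not differ detectably between the ligand states: none of 15 passed, with 11 called higher without TGFB1 and BMP2 and 10 with them. Tnfaip3 rose by 1.56 without and 1.72 with them (difference 0.16, SE 0.18), and Ubd by 2.161 and 2.349 (0.19, SE 0.20). Nfkbia rose by 1.45 without and 1.02 with them, a difference of -0.43 (SE 0.16) that did not pass (adjusted p = 0.267 by limma). A p that misses the threshold does not show that these effects are equal.

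Among 18 absorptive markers, 5 (Car1, Car2, Krt20, Ceacam20 and Cyp2c55) had a more negative TNF effect with TGFB1 and BMP2, beside 1.38% of all genes in either direction. Car1 stood at 1967, 1825 and 1259 CPM in vehicle and at 1380, 1388 and 1064 CPM with TNF alone, on the scale of the 12 libraries. Its TNF effect was -0.38 there and -1.10 with TGFB1 and BMP2 (difference -0.72, SE 0.11, adjusted p = 0.00722 by limma). Lypd8 showed the lowest p. It stood at 1797, 2393 and 1434 CPM in vehicle and at 2039, 2701 and 1439 CPM with TNF alone, an effect of 0.12, against -1.12 with TGFB1 and BMP2 (difference -1.24, SE 0.10, adjusted p = 0.000181). Muc13 likewise changed by 0.11 without and by -0.59 with them (difference -0.70, adjusted p = 0.00473), and the retinoic acid hydroxylase Cyp26b1 by -0.05 and -1.22.

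Opposite cases were fewer. Tm4sf5 stood at 18.5, 14.6 and 10.6 CPM in vehicle and at 23.1, 18.5 and 14.7 CPM with TNF alone, an effect of 0.36, against 1.82 with TGFB1 and BMP2 (difference 1.46, SE 0.18, adjusted p = 0.00314 by limma). Krt36, Slc28a3, Rgs4 and Pdgfb also rose more with TGFB1 and BMP2, with differences of 0.96, 0.93, 0.76 and 0.72. Cd74 rose less with them: it went from 2.42, 5.39 and 1.87 CPM to 14.2, 28.7 and 11.7 CPM with TNF alone, an effect of 2.17, against 1.01 with TGFB1 and BMP2 (difference -1.16, SE 0.18, adjusted p = 0.00856). The complement gene C3, named after its values were seen, went from 2.79, 5.67 and 2.17 CPM to 20.9, 75.7 and 19.5 CPM with TNF alone, an effect of 2.91, against 0.41 with TGFB1 and BMP2. In those libraries its mean was 0.489 CPM without TNF and 0.988 CPM with it, and the difference was -2.51 (SE 0.22, adjusted p = 0.000288 by limma). Over the 6 libraries with TGFB1 and BMP2 its mean was 0.67 CPM, too low to be tested in the main comparison. At such levels the scale shows less than the full change, which also enters the difference.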

How the data were processed

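Libraries were made with a stranded mRNA kit and read as 75 base pair paired-end reads, per the series description. Each deposited library column is a signal, CPM on an effective library size, and each of the authors' tables was scaled on its own. The submitters' processing notes name build mm10, TopHat2 2.1.0, HTSeq 0.5.4p5 and edgeR 3.4.2, beside SAMtools 1.3.1, bcl2fastq 2.16 and CASAVA, without their roles or settings. The authors' log2 fold change, p-value and false discovery rate columns were not used.

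Dividing each column by its value for 1 read gave whole reads for 100% of values (within 0.05 reads), and libraries that stand in 2 tables gave the same reads in both. Of the genes, 138 were listed only in the table without TNF and 86 only in that with TNF; they were not tested. The 6 libraries were scaled together (TMM) and genes whose mean reached 1 CPM were tested with limma (trend, two-sided) on log2(CPM + 1), line as a block, Benjamini-Hochberg adjustment, threshold 0.05. The lines are the same by the labels, and same-line deviations from the group means correlated at 0.854, 0.898 and 0.940. The p-values and SEs rest on the spread of the TNF effect between 3 lines, drawn by limma towards the spread of other genes. In the 6-library fit that shared part weighs 12.43 degrees of freedom, against 2 from the gene itself. The SE of a gene can thus be smaller or larger than its own 3 lines give. The sources used here do not say what separates the lines. The interaction used 12 libraries and the genes listed in all 3 tables. The count tests (edgeR quasi-likelihood and DESeq2 on recovered reads) were alternatives, as were other pseudocounts, filters, scalings and blocks and each line left out.

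Named genes were the 15 largest rises and 15 largest falls with 1 sign in all lines, up to 5 called members of each of 28 lists, Ccl20, Smad4 and the 5 smallest interaction p. Some genes that this rule names are not reported here. The comparison, the lists and the named genes were chosen with earlier results of these data known. Promoters came from RefSeq (GRCm38.p6), the same assembly as mm10, matched by symbol or unique older symbol. The software was DESeq2 1.42.0, edgeR 4.0.16 and limma 3.58.1 in R 4.3.3, with matplotlib for figures.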

Additional observations from a re-analysis of the deposited data

Results flagged for a closer look

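For 26 of the 119 named genes listed in all 3 colonoid tables, the TNF effect with TGFB1 and BMP2 differed from that without them by limma within 6 pairs of libraries, a fit chosen after the data were seen. Over all genes, 158 of 11413 differed (1.38%). The named genes include those with the largest TNF effects with TGFB1 and BMP2 and with the smallest p for the difference, and that choice favours a difference. The fit with 1 level per line called none of these differences. Values are the effect with minus the effect without TGFB1 and BMP2 on the log2(CPM + 1) scale.

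The effect was more negative, or less positive, with TGFB1 and BMP2 for 21 genes. Of these, the larger differences were in Aldh3b2 (-1.43), Lypd8 (-1.24), Trpv6 (-1.23), Fxyd4 (-1.18), Cyp26b1 (-1.17), Cd74 (-1.16), Gsdmc2 (-1.01), 1810065E05Rik (-0.996), Tgm3 (-0.92), Fhl1 (-0.91) and Oasl2 (-0.815). The smaller ones were in Gsdmc4 (-0.78), Nlrp6 (-0.75), Car1 (-0.72), Muc13 (-0.70), Cyp2d26 (-0.70), Cyp2c55 (-0.69), Gpr35 (-0.63), Ccl6 (-0.61), Id2 (-0.57) and Irf8 (-0.53). Among the genes with the larger differences, Aldh3b2 is an aldehyde dehydrogenase, Lypd8 a secreted barrier protein and Trpv6 a calcium channel. Fxyd4 is a regulator of ion transport, Cyp26b1 a retinoic acid hydroxylase and Cd74 a class II chaperone. Car1 and Cyp2c55, among the smaller differences, both belong to the absorptive markers.

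The effect was more positive for 5 genes, Tm4sf5 (1.46), Krt36 (0.96), Slc28a3 (0.93), Rgs4 (0.76) and Pdgfb (0.72). Of these, Tm4sf5, Krt36, Slc28a3 and Rgs4 were also among the 15 largest rises.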

How the results depend on the processing

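The 1688 calls stayed between 1417 and 1697 under other pseudocounts, filters and scalings, edgeR and DESeq2 with the line block, and at 1787 (limma) and 1753 (edgeR) with 6 pairs over 12 libraries. The paired design carries the result: with no replicate block 1 gene was called, and with 1 line level over all 12 libraries 254 were, 253 of them among the 1688. Leaving out a line gave 982 (without L42) to 1964 (without L46) calls. All 118 called named genes kept their sign in every setting that tested them. Of the 103 that every setting tested, 42 kept their call in each one with a block; the other 15 were missing from the 12-library fits or under a mean of 5 CPM. The interaction count of 0 became 32 with DESeq2, 158 with 6 pairs by limma and 167 by edgeR, and 50, 96 and 272 with 6 pairs without L42, L43 and L46; without the pairs it was 0 with no replicate block and without any line. The cause was not tested. No TNF effect is given for genes listed in 1 table only, among them Ccl20, Ccl2 and Ccl7.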
